A study of Mus musculus with 12 samples.

Results

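The 10 genes described here encode contractile and cytoskeletal proteins of airway smooth muscle: Actg2, Actc1, Myl9, Lmod1, Tpm2, Cald1, Synpo2, Des, Csrp1 and Nexn. They were chosen by symbol from 31078 genes in the count table, with earlier results of these data known. They were matched through their mouse Ensembl identifiers, and all 10 were among the 9519 genes with enough counts to be tested. RNA was sequenced from lungs of C57BL/6 mouse embryos at embryonic day 12.5, with left and right lungs kept apart. The 4 groups were left lungs of Intu knockout embryos, left lungs of wild type embryos, right lungs of Intu knockout embryos and right lungs of wild type embryos, with 3 numbered libraries in each. Parents of both genotypes carried an Intu knockout allele. The labels name neither the change at the Intu locus nor a Cre driver, and do not say whether a library came from 1 embryo or from several. Since separate embryos are not stated for the replicates either, p-values reflect the spread among these libraries, part of which can be technical. The study asked how wild type and mutant lungs differ, and how left and right lungs differ.

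Smooth muscle wraps the airways of the embryonic lung as they branch. It forms from mesenchyme next to the epithelium, and Hedgehog ligand from the epithelium is one of the signals known to act on that mesenchyme. Intu encodes a CPLANE protein needed to build primary cilia, through which vertebrate cells read Hedgehog signals. Contraction uses thin filaments of actin with tropomyosin, caldesmon and leiomodin, thick filaments of myosin II, and anchors in which desmin and actin-bundling proteins tie the filaments together. Many genes of this apparatus are controlled by serum response factor (SRF), which binds a DNA element called the CArG box, and by its partner myocardin.

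The table held genes on chromosomes 1 to 7, 10 and X and on a part of chromosome 8, so Acta2, Tagln and Myh11, other widely used smooth muscle markers, were not analysed here. Counts assigned to these genes added up to between 10290103 and 10753386 in a library. Levels are given as normalised CPM, in which each library is scaled by its normalised total of counts in the table. Genes are compared with one another only per kilobase of annotated exon. The Intu count itself checked the labels weakly: it lay between 26.2 and 27.5 CPM in knockout left lungs, against 30.5 to 32.5 CPM in wild type left lungs, and between 28.2 and 31.4 CPM in knockout right lungs, against 28.2 to 34 CPM in wild type right lungs. The right-hand groups overlapped, and no genotype difference in Intu passed the test (adjusted p = 0.38 for left and 0.673 for right lungs). Gli1, a transcriptional target of Hedgehog signalling, averaged 176 ± 9.07 CPM in knockout left lungs and 367 ± 25.1 CPM in wild type left lungs, and 164 ± 15.1 CPM in knockout right lungs and 359 ± 16.7 CPM in wild type right lungs (SD, n = 3 each). In bulk tissue, fewer smooth muscle cells and less RNA per cell cannot be told apart.

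Of the windows around the transcription starts of these genes, from 250 bases before to 50 bases after a RefSeq start (GRCm38.p6), 10 were at hand for 8 genes; Actg2 and Nexn are named only. A CArG box, written as 2 cytosines, 6 bases that are each A or T and 2 guanines, and searched on both strands, lay in 2 of these 10 windows, against 1.63% of all 32851 windows of 300 bases. The 2 windows belong to Actc1 and Myl9, and they are printed with the box in capitals, next to the window of Synpo2, a gene with one of the greatest genotype differences and no box in its window.
Actc1, chr2:114052826-114053125, minus strand, box starting 47 bases before the start: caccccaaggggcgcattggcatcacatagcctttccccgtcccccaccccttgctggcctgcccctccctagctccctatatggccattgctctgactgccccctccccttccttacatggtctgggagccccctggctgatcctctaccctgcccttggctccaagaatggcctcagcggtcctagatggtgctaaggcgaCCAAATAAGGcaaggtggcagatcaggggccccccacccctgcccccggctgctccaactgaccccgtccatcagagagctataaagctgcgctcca
Myl9, chr2:156775214-156775513, plus strand, box starting 161 bases before the start: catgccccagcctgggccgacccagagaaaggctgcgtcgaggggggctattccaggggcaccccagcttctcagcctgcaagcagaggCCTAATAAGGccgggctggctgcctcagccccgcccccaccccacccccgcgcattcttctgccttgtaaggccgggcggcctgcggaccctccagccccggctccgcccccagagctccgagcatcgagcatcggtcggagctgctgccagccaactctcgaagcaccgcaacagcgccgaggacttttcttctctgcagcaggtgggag
Synpo2, chr3:123236100-123236399, minus strand: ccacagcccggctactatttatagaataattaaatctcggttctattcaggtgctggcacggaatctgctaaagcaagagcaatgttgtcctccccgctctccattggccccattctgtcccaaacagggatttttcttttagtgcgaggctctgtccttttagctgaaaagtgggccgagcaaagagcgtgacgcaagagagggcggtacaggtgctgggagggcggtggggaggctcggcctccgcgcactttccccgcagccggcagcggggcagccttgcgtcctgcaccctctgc
A second motif, the MCAT element CATTCC, also searched on both strands, was found in 2 of the 10 windows, those of Lmod1 and of 1 of the Cald1 starts, against 14.7% of all windows. These matches describe letters within 300 bases, and a CArG box outside the windows was not searched for.

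Knockout lungs had less RNA of a part of the contractile set on both sides, and none of the 10 genes was called higher. On the left, 5 of the 10 genes were called lower, against 0.872% of all tested genes called lower in that comparison, and on the right 6, against 1.18%. With the counts of the left and right library of 1 genotype and number added up, 6 were called lower, against 1.04%. Because the 10 genes were chosen with earlier results known, their counts beside these shares are a description and not a test of the set. Genes called higher made up 0.305%, 0.336% and 0.343% of all tested genes in these 3 comparisons, and genes called in either direction 1.18%, 1.51% and 1.38%. Called means an adjusted p under 0.05 by edgeR's quasi-likelihood test with Benjamini-Hochberg adjustment over all tested genes. Actg2, Synpo2, Actc1, Lmod1 and Myl9 fell in all 3 comparisons. Des was called on the right alone and Tpm2 in the summed counts alone, whereas Cald1, Csrp1 and Nexn were called in none of them. The median log2 fold change of the 10 genes was -0.59 on the left, -0.63 on the right and -0.60 summed, beside 0.004 over all tested genes in each.

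**Figure D1:**
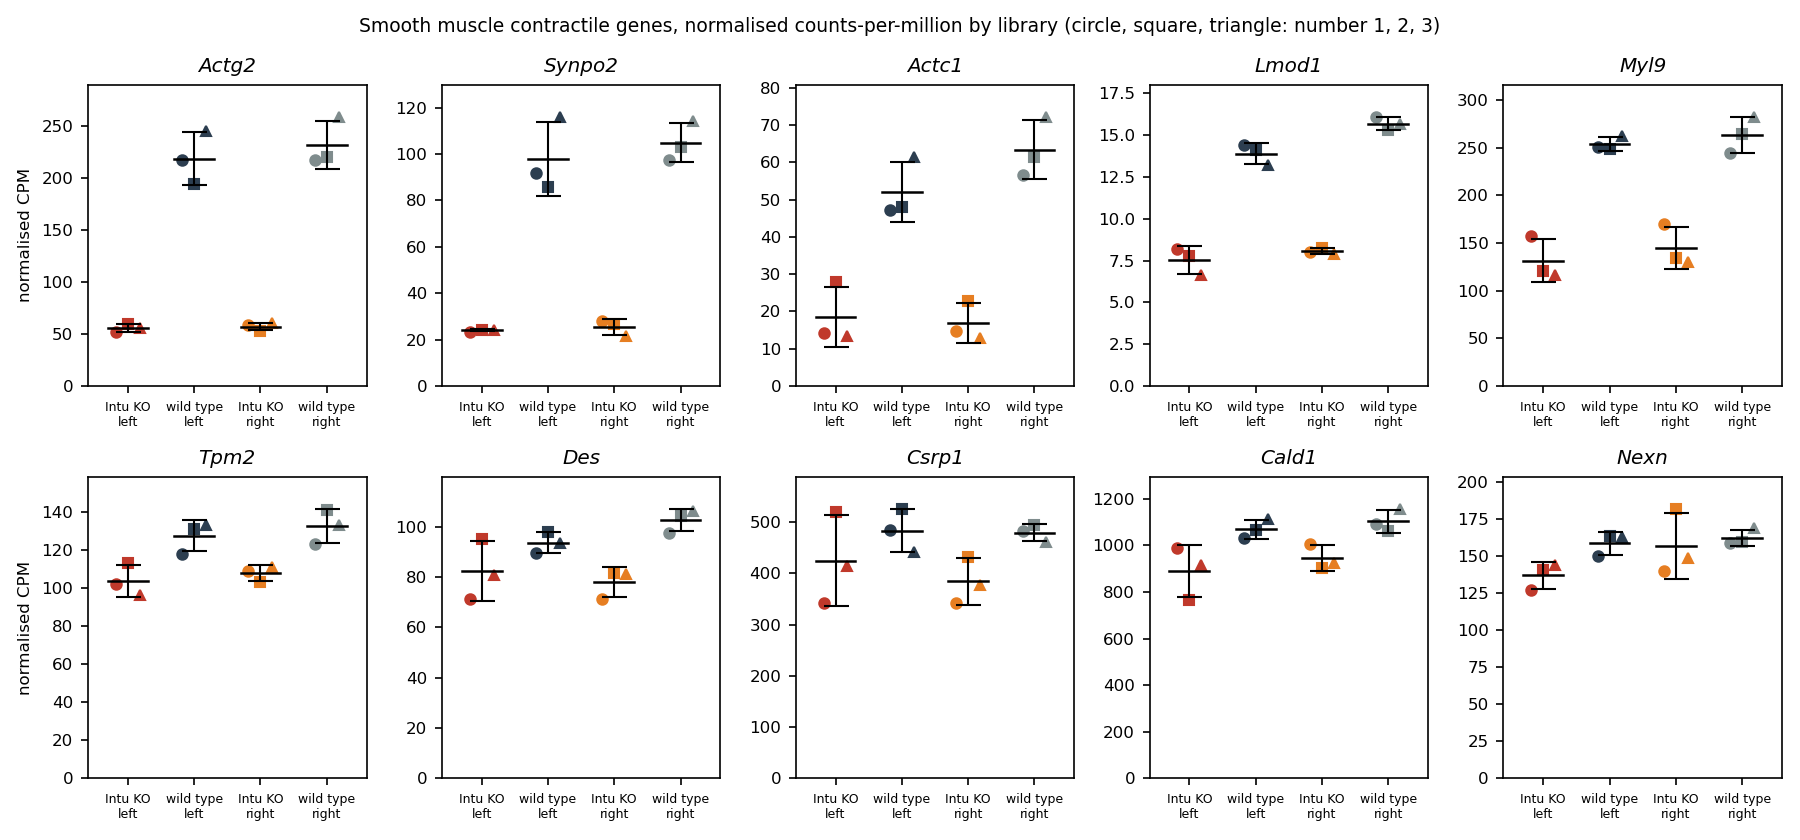
Normalised CPM (vertical axes, starting at 0) of each of the 10 genes in every library, with Intu knockout groups left of their wild type groups; horizontal lines and bars are mean and SD of 3 libraries. Actg2 lies between 52.1 and 60.2 CPM in the 6 knockout libraries and between 194 and 259 CPM in the 6 wild type libraries, while the points of Nexn in right lungs overlap.

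Actg2 on chromosome 6 (83512905 to 83536265, minus strand, GRCm38) encodes smooth muscle gamma-actin, the thin-filament actin of visceral smooth muscle. Knockout left lungs held 52.1, 59.4 and 55.8 CPM of it, against 217, 194 and 245 CPM in wild type left lungs. Knockout right lungs held 58.3, 53.2 and 60.2 CPM, against 217, 220 and 259 CPM in wild type right lungs. No knockout library came near the lowest wild type library, and the spread within groups was small, with a coefficient of variation of 6.54% in knockout left lungs and 11.5% in wild type left lungs. The log2 fold change was -1.97 (SE 0.09, adjusted p = 8.75e-08) on the left and -2.02 (SE 0.09, adjusted p = 6.17e-08) on the right. In the summed counts, wild type held 3.99 times the knockout level (adjusted p = 1.21e-05).

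Actc1 on chromosome 2 (114047282 to 114053548, minus strand) encodes cardiac alpha-actin, which embryonic smooth and skeletal muscle also use. Its values were 14.3, 27.9 and 13.3 CPM in knockout left lungs, against 47.1, 47.9 and 61.3 CPM in wild type left lungs. On the right they were 14.8, 22.9 and 12.9 CPM in knockout lungs, against 56.6, 61.5 and 72.2 CPM in wild type lungs. The genotypes did not overlap, but knockout number 2 stood above the other knockout libraries on both sides, by 0.67 on the left and 0.48 on the right as a log2 deviation from its group mean. With a coefficient of variation of 44.2% in knockout left lungs, Actc1 was the most variable of the 10 genes there. Its log2 fold change was -1.49 (SE 0.25, adjusted p = 0.00989) on the left, -1.91 (SE 0.25, adjusted p = 0.00115) on the right and -1.71 (SE 0.22, adjusted p = 0.0113) summed. The summed call was lost without pair number 3 of the knockout (adjusted p = 0.0521) or without pair number 2 of the wild type (adjusted p = 0.0577). Because Actc1 is also an actin of heart muscle, 22 cardiac markers were examined beside it, of which 11 were in the table. None of the 8 tested was called, their median log2 fold change was 0.36 in the summed counts, and their summed level was 40 to 51.7 CPM in knockout left lungs and 36.3 to 39.5 CPM in wild type left lungs, and 47.3 to 69.9 CPM in knockout right lungs and 40.1 to 48.7 CPM in wild type right lungs. None of the 11 was at 0 in all libraries. The part that heart tissue had in the Actc1 values was not tested.

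Of 6 actin genes listed, 3 were in the table: Actg2, Actc1 and Actb. Actb encodes the cytoplasmic beta-actin of most cells, and no other actin beyond muscle was compared here. It averaged 7568 CPM in knockout left lungs and 7841 CPM in wild type left lungs, with a log2 fold change of -0.05 (SE 0.06, adjusted p = 0.86) on the left and -0.12 (SE 0.06, adjusted p = 0.419) on the right. Actg2 and Actc1 thus passed the test on both sides and Actb on neither. Actg2 and Actc1 share no 50-base stretch with the annotated transcripts of other genes, other actins included.

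Myl9 on chromosome 2 (156775420 to 156781658, plus strand) encodes the regulatory light chain of smooth muscle myosin II, whose phosphorylation starts contraction. Knockout left lungs held 157, 121 and 116 CPM, against 251, 249 and 262 CPM in wild type left lungs. Knockout right lungs held 170, 134 and 130 CPM, against 244, 264 and 282 CPM in wild type right lungs. Knockout number 1 was the highest knockout library on both sides, 0.27 and 0.25 above its group mean in log2, and still lay below every wild type library. Between genotypes the log2 fold change was -0.95 (SE 0.11, adjusted p = 0.000882) on the left, -0.86 (SE 0.11, adjusted p = 0.00122) on the right and -0.91 (SE 0.10, adjusted p = 0.00593) summed.

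Lmod1 on chromosome 1 (135324807 to 135368065, plus strand) encodes leiomodin 1, which nucleates actin filaments in smooth muscle. It was the gene with the fewest counts of the set, between 69 and 86 in a knockout library and between 141 and 168 in a wild type library. This gave 8.22, 7.76 and 6.64 CPM in knockout left lungs, against 14.4, 14.1 and 13.2 CPM in wild type left lungs. In right lungs it gave 8.01, 8.26 and 7.91 CPM in the knockout, against 16.1, 15.3 and 15.7 CPM in the wild type. The groups were narrow and well apart on both sides, and the log2 fold change was -0.88 (SE 0.12, adjusted p = 0.00187) on the left, -0.96 (SE 0.11, adjusted p = 0.00067) on the right and -0.92 (SE 0.10, adjusted p = 0.00593) summed.

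Tpm2 on chromosome 4 (43514711 to 43523765, minus strand) encodes beta-tropomyosin, which lies along the actin filament. It measured 102, 113 and 96.4 CPM in knockout left lungs, against 118, 131 and 133 CPM in wild type left lungs, and 109, 103 and 111 CPM in knockout right lungs, against 123, 141 and 133 CPM in wild type right lungs. All 6 knockout libraries lay below all 6 wild type libraries by a small margin. Its log2 fold change was -0.30 on each side (SE 0.07 on both, adjusted p = 0.0723 for left and 0.0623 for right lungs). In the summed counts it was -0.30 (SE 0.06, adjusted p = 0.0407), a call lost without knockout pair number 1 (adjusted p = 0.0683), knockout pair number 3 (0.167), wild type pair number 2 (0.179) or wild type pair number 3 (0.107).

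Cald1 on chromosome 6 (34598500 to 34775473, plus strand) encodes caldesmon, an actin-binding inhibitor of myosin activity that has a smooth muscle form and a form found in other cells. It took the most counts of the 10 genes, with 987, 766 and 917 CPM in knockout left lungs, against 1031, 1066 and 1112 CPM in wild type left lungs, and 1008, 901 and 924 CPM in knockout right lungs, against 1094, 1060 and 1156 CPM in wild type right lungs. The genotypes did not overlap. The difference did not pass the test, with a log2 fold change of -0.27 (SE 0.08, adjusted p = 0.157) on the left, -0.22 (SE 0.08, adjusted p = 0.223) on the right and -0.24 (SE 0.07, adjusted p = 0.137) summed. Gene counts do not separate the 2 forms of caldesmon.

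Synpo2 on chromosome 3 (123076519 to 123236149, minus strand) encodes synaptopodin 2, an actin-bundling protein of muscle anchoring structures. Its level was 23.5, 24.3 and 24.3 CPM in knockout left lungs, against 92, 85.8 and 116 CPM in wild type left lungs. In right lungs it was 27.9, 26.6 and 21.6 CPM in the knockout, against 97.6, 103 and 114 CPM in the wild type. The genotypes were about as far apart in log2 as for Actg2, with a log2 fold change of -2.03 (SE 0.12, adjusted p = 5.77e-07) on the left, -2.05 (SE 0.12, adjusted p = 4.7e-07) on the right and -2.04 (SE 0.09, adjusted p = 3.06e-05) summed. Synpo2 is on the chromosome of Intu, as is Nexn, but 82372 kb from it, and Nexn is 111532 kb away.

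Des on chromosome 1 (75360329 to 75368579, plus strand) encodes desmin, the intermediate filament protein of muscle cells. Knockout left lungs held 71.1, 95 and 80.8 CPM, against 89.5, 97.8 and 93.5 CPM in wild type left lungs, so that knockout number 2 lay among the wild type libraries. Knockout right lungs held 71.3, 81.7 and 81.2 CPM, against 97.5, 104 and 106 CPM in wild type right lungs, with no overlap. For Des the log2 fold change was -0.19 (SE 0.09, adjusted p = 0.492) on the left and -0.40 (SE 0.09, adjusted p = 0.0484) on the right. The call on the right was lost when any 1 of 10 of the 12 libraries was left out, with adjusted p between 0.067 and 0.19 in those fits. In the summed counts the log2 fold change was -0.29 (SE 0.08, adjusted p = 0.137), which passed the test without knockout pair number 2 (adjusted p = 0.0386). Des was called in 4 of 13 alternative runs of the summed comparison, whose values ranged from -0.37 to -0.21. Some 5.86% of Des exon bases overlap Gm15179 on the opposite strand.

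Csrp1 on chromosome 1 (135720061 to 135752232, plus strand) encodes a LIM-domain protein that associates with the actin cytoskeleton in smooth muscle. It starts 352 kb after the end of Lmod1. Csrp1 measured 342, 519 and 414 CPM in knockout left lungs, against 485, 525 and 441 CPM in wild type left lungs, and 343, 433 and 378 CPM in knockout right lungs, against 483, 494 and 461 CPM in wild type right lungs. Knockout number 2 was again the highest knockout library on each side, and the left groups overlapped. For Csrp1 the log2 fold change was -0.19 (SE 0.12, adjusted p = 0.68) on the left, -0.32 (SE 0.12, adjusted p = 0.267) on the right and -0.25 (SE 0.11, adjusted p = 0.358) summed. Without knockout pair number 2 the summed value was -0.38 (SE 0.07) and passed the test, with an adjusted p of 0.0454. That was the only call of Csrp1 in 13 alternative runs of the summed comparison, whose values ranged from -0.38 to -0.14.

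Nexn on chromosome 3 (152236982 to 152266350, minus strand) encodes nexilin, an actin filament-binding protein of muscle anchoring structures. It held 127, 141 and 144 CPM in knockout left lungs, against 150, 164 and 163 CPM in wild type left lungs. In right lungs it held 140, 182 and 149 CPM in the knockout, where number 2 was above all wild type libraries, against 159, 160 and 169 CPM in the wild type. The log2 fold change was -0.21 (SE 0.09, adjusted p = 0.369) on the left, -0.05 (SE 0.09, adjusted p = 0.868) on the right and -0.13 (SE 0.07, adjusted p = 0.488) summed. Some 7.5% of Nexn exon bases are shared with Gm43185 on the same strand, and how reads from these bases were counted is not known.

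**Figure D2:**
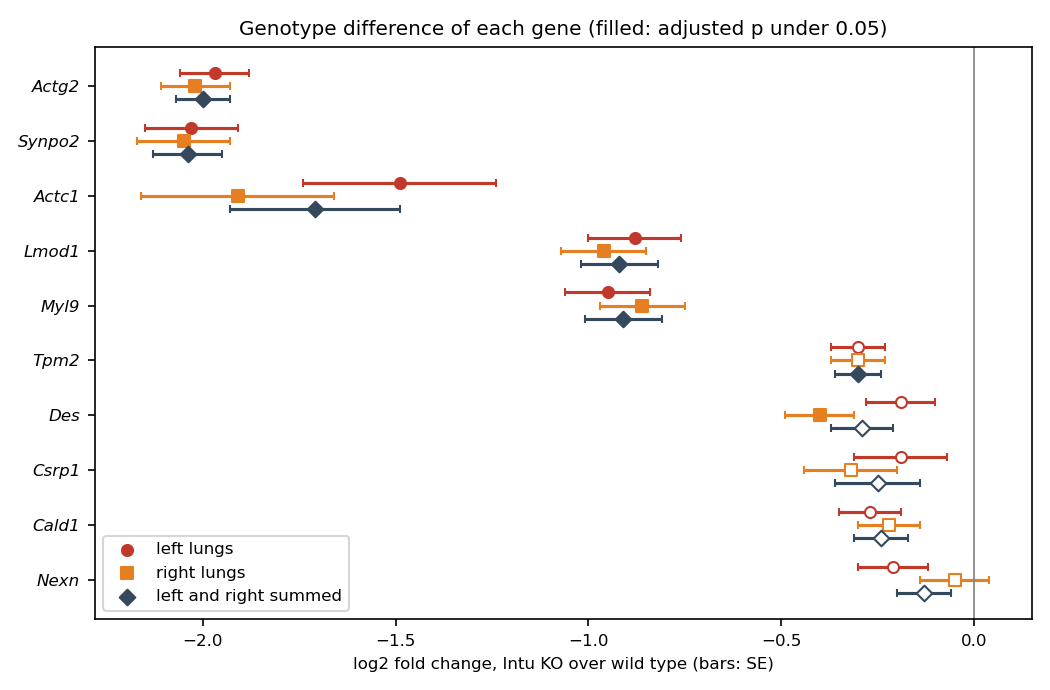
Log2 fold change, Intu knockout over wild type (horizontal axis), of the 10 genes (rows) in left lungs, right lungs and their summed counts; points are estimates, bars SE, and filled symbols have an adjusted p under 0.05. Actg2 and Synpo2 sit near -2, Actc1 between -1.91 and -1.49, Lmod1 and Myl9 near -0.9, and the other 5 genes between -0.40 and -0.05.

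The genes thus fell into a graded order of differences. Knockout levels were 25.5% of wild type for Actg2 and 24.5% for Synpo2 on the left, 35.5% for Actc1, 54.3% for Lmod1 and 51.8% for Myl9. They were 81.4% for Tpm2, 83.2% for Cald1, 86.3% for Nexn and 87.9% for both Des and Csrp1. Right lungs gave 24.7% for Actg2 and 24.2% for Synpo2 at one end, and 96.7% for Nexn at the other. Taking non-overlap of the groups in place of the test, all knockout libraries lay below all wild type libraries for 8 of the 10 genes on the left (8.26% of all tested genes), for 9 on the right (9.71%) and for 7 across all 12 libraries (2.65%). Des and Csrp1 were the exceptions on the left and Nexn on the right.

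Per kilobase of exon, the order of the levels also differed between genotypes. The exon length takes in all annotated exons of a gene, from 1162 bases for Myl9 to 13089 for Synpo2, whichever of them are used. Ranks between genes and sums per kilobase depend on these lengths. In knockout left lungs Csrp1 came first with 217 CPM per kb, ahead of Myl9 with 113 and Cald1 with 73.9, and Actg2 was level with Nexn and Tpm2, at 35.8, 35.8 and 35.7 CPM per kb, with overlapping ranges. In wild type left lungs Csrp1 also came first with 247 CPM per kb, followed by Myl9 with 219, Actg2 with 140 and Cald1 with 88.8, with no overlap among these 4 genes. At the low end, Lmod1 and Synpo2 overlapped in knockout left lungs, where they had 1.91 and 1.84 CPM per kb, whereas Synpo2 with 7.48 was above Lmod1 with 3.52 CPM per kb in wild type left lungs. Actc1 was below Des in knockout left lungs (11.4 against 21.9 CPM per kb) and above it in wild type left lungs (32.2 against 24.9 CPM per kb), in each case with no overlap. In right lungs Actg2 overlapped Tpm2 in the knockout, with 36.7 and 37 CPM per kb, and stood between Myl9 and Cald1 in the wild type, with 149 CPM per kb. Csrp1 and Myl9 overlapped in wild type right lungs, as did Tpm2 with Nexn and Nexn with Actc1.

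**Figure D3:**
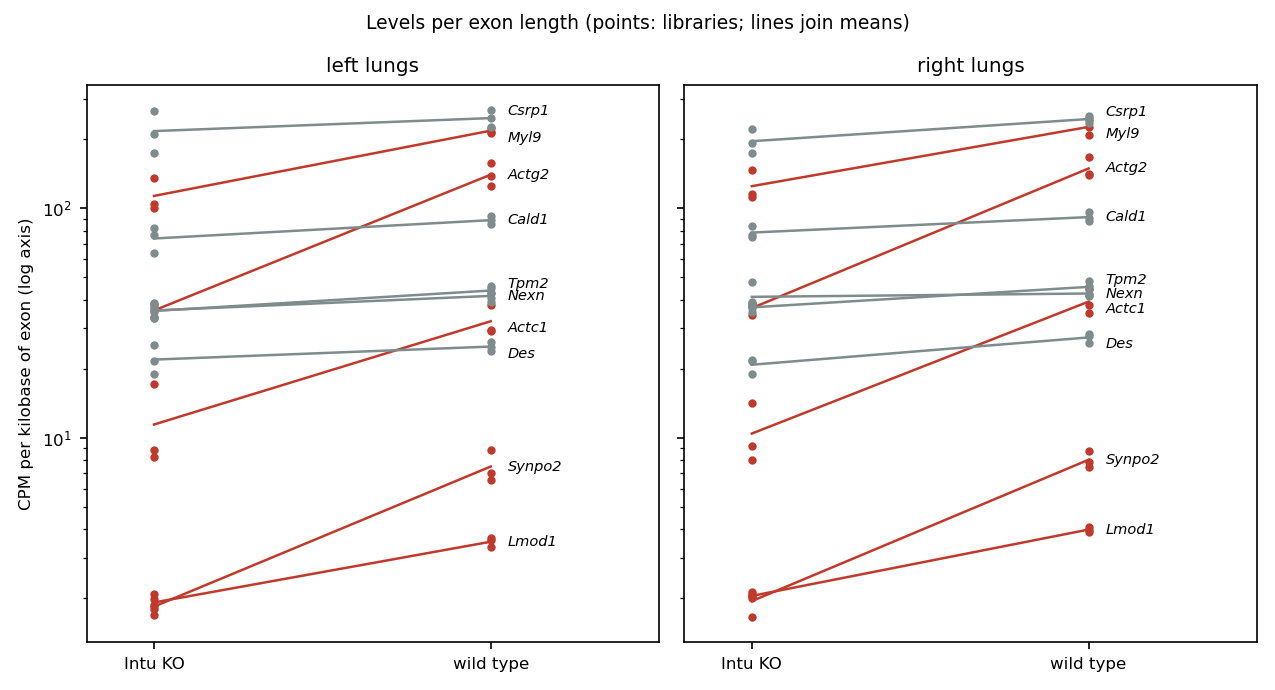
CPM per kilobase of exon (log axis) of each gene in Intu knockout (left of each panel) and wild type libraries (right), for left and right lungs; points are libraries, lines join group means, and red marks the 5 genes called in all 3 genotype comparisons. The red line of Actg2 joins 35.8 in knockout and 140 in wild type left lungs and crosses that of Cald1.

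Summed over the 10 genes, the level was 549 ± 38.4 CPM per kb in knockout left lungs and 849 ± 15.8 in wild type left lungs, and 550 ± 19.1 CPM per kb in knockout right lungs and 879 ± 36.7 in wild type right lungs (SD, n = 3 each). Actg2 made up 6.01% to 7.28% of that sum in the knockout libraries and 14.7% to 18.2% in the wild type libraries. The 5 genes called in all 3 comparisons summed to between 148 and 197 CPM per kb in knockout libraries and between 379 and 467 in wild type libraries. The other 5 genes summed to between 344 and 430 CPM per kb in knockout libraries and between 431 and 471 in wild type libraries. These 2 sets were divided by the tests themselves, so their sums are descriptions.

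Left and right lungs were then compared within each genotype. None of the 10 genes was called between left and right in knockout lungs, where 0% of all tested genes were called by edgeR and 358 had an unadjusted p under 0.05. None was called in wild type lungs, where 0.0105% of genes were called and 249 had an unadjusted p under 0.05. By DESeq2, 4 genes were called in knockout and 11 in wild type lungs, and no contractile gene was among them. In knockout lungs the log2 difference, left minus right, was -0.20 (SE 0.09) for Nexn, 0.14 (SE 0.12) for Csrp1, -0.14 (SE 0.11) for Myl9 and 0.13 (SE 0.26) for Actc1. Without knockout left library number 2, the sign turned for Csrp1 (-0.03, SE 0.10) and Actc1 (-0.29, SE 0.22). In wild type lungs it was -0.28 (SE 0.23) for Actc1, -0.18 (SE 0.11) for Lmod1 and -0.13 (SE 0.09) for Des, and between -0.10 and 0.01 for the other 7 genes.

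Left and right libraries of the same genotype and number deviated together from their group means, so the sides were also compared with the number as a replicate block. The calls over all genes then numbered 42 in knockout and 64 in wild type lungs, still with none of the 10. Actc1 in wild type lungs came nearest, with a left-minus-right difference of -0.29 (adjusted p = 0.0537 with the replicate block). It was lower on the left in all 3 wild type pairs, with log2 differences of -0.26, -0.36 and -0.24. In knockout lungs the same 3 pairs gave -0.06, 0.29 and 0.04. By direction alone, Myl9, Cald1 and Nexn were lower on the left in all 3 knockout pairs (3 of 10 genes, against 14.4% of tested genes), and Actg2, Lmod1, Actc1 and Des in all 3 wild type pairs (4 of 10, against 13.4%), the Actg2 difference in pair 1 being too small to show at 2 decimals. Whether the genotype difference itself depended on the side was tested as an interaction. None of the 10 genes was called (0% of tested genes by edgeR, 124 with an unadjusted p under 0.05, and none by DESeq2), and the most positive and most negative values were 0.42 (SE 0.35) for Actc1 and -0.16 (SE 0.12) for Nexn. The value of Actc1 was -0.01 (SE 0.27) without knockout left library number 2.

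**Figure D4:**
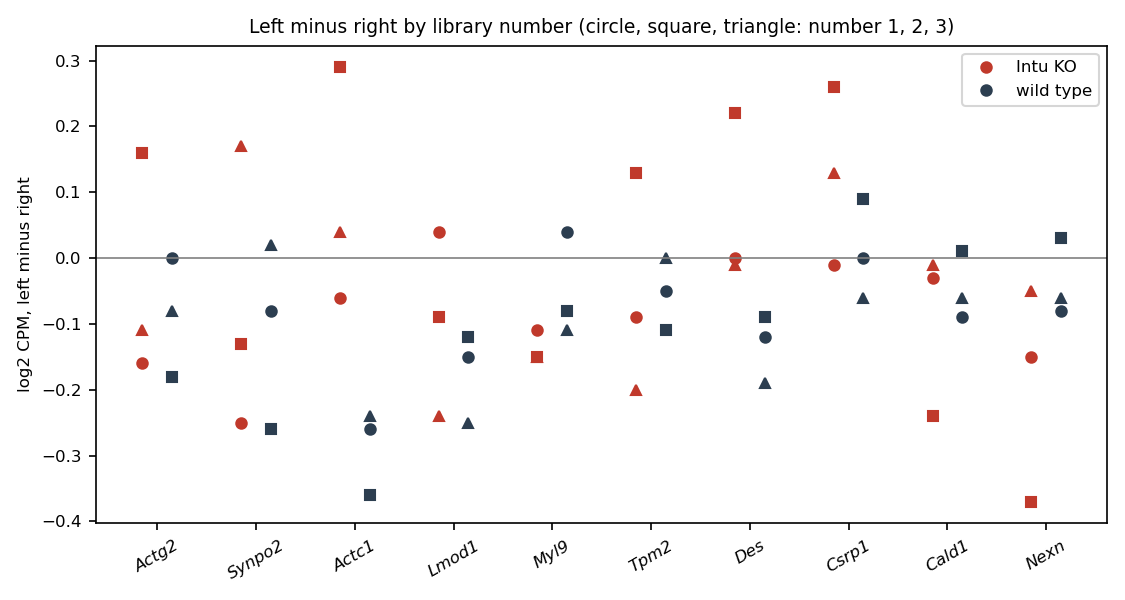
Difference in log2 CPM, left minus right (vertical axis), of each gene for the 3 pairs of same-numbered libraries in Intu knockout and wild type lungs; circles, squares and triangles are numbers 1, 2 and 3. Points scatter on both sides of 0 for most genes, while the wild type points of Actc1, at -0.26, -0.36 and -0.24, all lie below 0.

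Deviations within groups were not the same for all genes. In knockout lungs number 2 was above its group mean on both sides for Actc1, Csrp1, Des, Nexn, Lmod1 and Synpo2. The log2 deviations were 0.31 and 0.18 for Csrp1 and 0.22 and 0.07 for Des. For Myl9 and Cald1 number 2 was below its group mean on both sides. Knockout number 1 was below its group mean on both sides for Csrp1 (deviations of -0.29 and -0.16), Actc1, Des and Nexn. It was above its group mean for Myl9 and Cald1. Wild type number 3 was above its group mean on both sides for Actg2 (by 0.17 on each) and Synpo2 (by 0.26 and 0.13). The same held for Actc1 (by 0.25 and 0.19), Myl9, Tpm2, Cald1 and Nexn, while for Csrp1 number 3 was below on both sides. Knockout left library number 1 had 88 CPM of liver markers, against at most 9.82 CPM in any other library; none of the 3 liver markers tested was called in any genotype comparison, and with that library left out 5 of the 10 genes were again called lower on the left.

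Beyond the 10 genes, 62 further genes of the smooth muscle contractile apparatus were listed, of which 33 were in the table and tested. Of these, 2 were called lower on the left, 4 on the right and 3 in the summed counts, and none was called higher. Among all tested genes, 0.872% were called lower on the left, 1.18% on the right and 1.04% in the summed counts. Their median log2 fold change was -0.08 on the left, -0.08 on the right and -0.09 summed. Pdlim3, a PDZ and LIM protein of actin anchoring structures, averaged 7.27 ± 1.54 CPM in knockout left lungs and 14.7 ± 2.61 CPM in wild type left lungs, and 6.18 ± 1.05 CPM in knockout right lungs and 19.1 ± 0.893 CPM in wild type right lungs (SD, n = 3 each). Its log2 fold change was -1.33 (SE 0.14, adjusted p = 0.00509) summed. Jph2, a junctophilin that holds the sarcoplasmic reticulum near the plasma membrane, had a log2 fold change of -0.92 (SE 0.10, adjusted p = 0.00509) summed. Gucy1a1, a subunit of the nitric oxide receptor, was called on the right (-0.41, SE 0.07, adjusted p = 0.00686) and summed (-0.34, SE 0.06, adjusted p = 0.032). Cnn2, a calponin found in many cell types, was called on the right (-0.29, SE 0.07, adjusted p = 0.0476).

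The list of SRF partners and of mesenchymal factors that act on smooth muscle had 30 genes, of which 18 were in the table and 17 were tested. Fhl2, a LIM protein that binds SRF in smooth muscle cells, was lower in the knockout, with a log2 fold change of -0.68 (SE 0.12, adjusted p = 0.0107) on the left and -0.70 (SE 0.12, adjusted p = 0.00686) on the right. Prrx1, a mesenchymal homeobox factor, went the other way: it averaged 60.3 ± 11.4 CPM in knockout left lungs and 30.1 ± 0.495 CPM in wild type left lungs (log2 fold change 1.00, SE 0.13, adjusted p = 0.00154), and 66.6 ± 10.3 CPM in knockout right lungs and 40.4 ± 0.455 CPM in wild type right lungs (0.72, SE 0.12, adjusted p = 0.00869). In the summed counts Gata5 was also called lower (-0.22, SE 0.04, adjusted p = 0.0466), and the list's median was -0.11. The Hedgehog readouts Gli1 and Hhip were lower on both sides. Gli1 had a summed log2 fold change of -1.10 (SE 0.06, adjusted p = 7.84e-05), and Hhip, which encodes a Hedgehog-binding antagonist, one of -0.85 (SE 0.10, adjusted p = 0.00595).

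**Figure D5:**
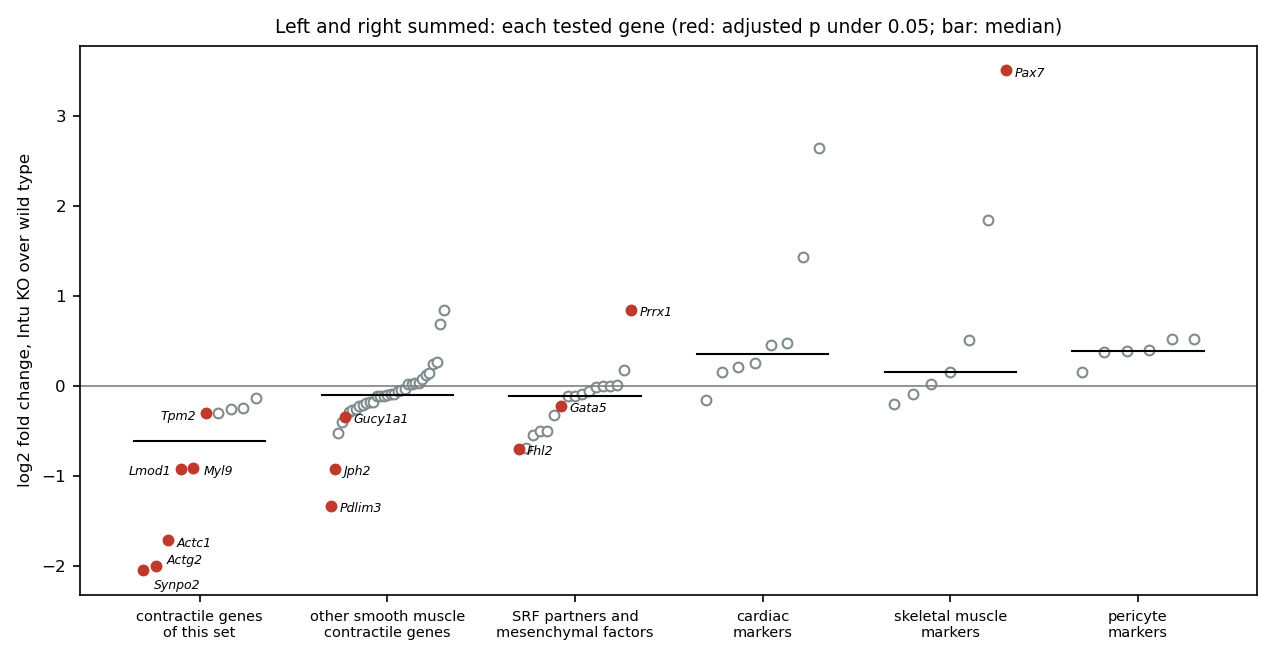
Log2 fold change, Intu knockout over wild type, in the summed counts (vertical axis) for each tested gene of 6 lists (columns); filled red points have an adjusted p under 0.05 and bars are medians. The 10 contractile genes have a median of -0.60, the other smooth muscle genes -0.09, and the cardiac, skeletal and pericyte markers lie mostly above 0.

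Markers of other muscle and mural cells and of the other lung tissues were summed to show what moved with these genes. Of the 7 skeletal muscle markers tested in the summed counts, Pax7, a muscle progenitor factor under 2 CPM in every group mean, was called higher (3.51, SE 0.62, adjusted p = 0.034). The sum of the 15 skeletal markers in the table was 14.2 to 19.9 CPM in knockout left lungs and 14.5 to 15.9 CPM in wild type left lungs, and 13.9 to 24.5 CPM in knockout right lungs and 15.5 to 16 CPM in wild type right lungs. All 6 tested pericyte and vascular mural markers had positive log2 fold changes and none was called, with a median of 0.40 summed. Their sum was 106 to 168 CPM in knockout left lungs and 78.8 to 150 CPM in wild type left lungs, and 127 to 192 CPM in knockout right lungs and 98.5 to 188 CPM in wild type right lungs. These ranges overlapped on both sides. None of 9 endothelial, 7 epithelial and 7 general mesenchymal markers was called in any of the 3 comparisons, with summed medians of 0.03, -0.03 and 0.04. Epithelial markers summed to 553 to 674 CPM in knockout left lungs and 650 to 703 CPM in wild type left lungs, and to 584 to 665 CPM in knockout right lungs and 626 to 676 CPM in wild type right lungs. General mesenchymal markers summed to 8375 to 8934 CPM in knockout left lungs and 7624 to 8100 CPM in wild type left lungs, and to 8062 to 9180 CPM in knockout right lungs and 7728 to 7947 CPM in wild type right lungs, with no overlap on either side. This sum is weighted to abundant collagens. On the left, Col1a2 averaged 2976 CPM in knockout and 2519 CPM in wild type lungs, and Col3a1 3266 and 2894 CPM. By log2 fold change, 4 of the 7 markers were negative on the left (median -0.00) and 2 on the right (median 0.08). Of 5 mesothelial markers, Upk3b was lower on the right (-0.41, SE 0.09, adjusted p = 0.0448).

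Markers of neurons and their progenitors were also called lower in part. Of 15 listed, 10 were in the table. Of those tested, 1 of 9 was called lower on the left, 4 of 9 on the right and 5 of 10 summed. The shares of all tested genes called lower were 0.872%, 1.18% and 1.04%, in that order. Phox2a, a determinant of autonomic neurons, had a summed log2 fold change of -2.20 (SE 0.28, adjusted p = 0.00973), and Stmn2, a neuronal microtubule regulator, one of -1.47 (SE 0.15, adjusted p = 0.00458). Their summed level was 38.7 to 47.6 CPM in knockout left lungs and 47.3 to 78 CPM in wild type left lungs, and 36.8 to 43.4 CPM in knockout right lungs and 76.1 to 79.4 CPM in wild type right lungs. No list had a marker at 0 in all libraries, and the part of these other cell types in the differences of the contractile genes was not tested.

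For each contractile gene, the genes with the most similar profile over the 12 libraries were sought by the smallest root mean square difference of centred log2 CPM. Within the set, Actg2 and Synpo2 differed by 0.118 and Lmod1 and Myl9 by 0.135. Outside it, 7134 tested genes with a mean of at least 5 CPM were searched, with the 10 contractile genes left out, and the ranks that follow are among those genes. Nptx2, a secreted pentraxin, was nearest to both Actg2 (0.214) and Synpo2 (0.281), and it averaged 3.09 CPM in knockout left lungs and 11.1 CPM in wild type left lungs. Fhdc1, a formin-type actin and microtubule regulator, was second for both (0.337 and 0.371), with 44.4 CPM in knockout left lungs and 111 CPM in wild type left lungs. Tspan2, a tetraspanin, was nearest to Lmod1 (0.152) and second for Myl9 (0.174), whose nearest gene was Slc24a3, a sodium and calcium exchanger (0.137). Cdh4 was second for Lmod1 (0.165). Pdlim3 was nearest to Actc1 (0.344). The genes with small genotype differences varied little themselves, with a root mean square around their mean of 0.137 (Nexn) to 0.206 (Csrp1). A gene of constant level would lie at that distance from them, so small distances are easily reached. Their nearest genes were Ddah1 (0.0656) and Pear1 for Des, Rusc2 (0.0711) and Cnn2 for Tpm2, and Leprotl1 (0.0689) and Neto2 for Cald1. For Csrp1 they were Fxyd5 (0.0946) and Lrrc17, and for Nexn Atp1b1 (0.0745) and Srgap1. These genes were chosen for their likeness, so their values are descriptions.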

How the data were processed

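The authors deposited 1 table of raw read counts per gene for all 12 libraries, not normalised. Per the submitters' processing notes, FastQC, HISAT2, featureCounts and GRCm38 were used; their versions and the strand setting are not given in these sources. RNA was extracted with a NucleoSpin kit and libraries were made by BGI, per the labels' protocols. The table gives Ensembl identifiers and exon coordinates; 1 incomplete last row was left out. Symbols were matched for 30915 genes (99.5%) and exon lengths are from the deposited table. Library totals cover part of the genome and are not full depths. The 20 most abundant genes took 6.45% to 6.94% of counts.

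Counts were filtered with filterByExpr (minimum count 10, minimum total 15), scaled with TMM (factors 0.992 to 1.01) and tested with edgeR 4.0.16 (R 4.3.3, glmQLFit and glmQLFTest) in 1 fit of 4 groups with 8 residual degrees of freedom, with Benjamini-Hochberg adjustment over 9519 genes and a threshold of 0.05. That fit took the 12 libraries as independent, so its p-values for each side and for left against right leave out the pairing described below. For both sides together, counts of the left and right library of 1 genotype and number were added and 3 knockout and 3 wild type sums compared (10203 genes, 4 residual degrees of freedom). SE is the log2 fold change divided by the square root of the F statistic. Same-numbered left and right libraries of a genotype correlated in their deviations from group means (r 0.253 to 0.486 in 6 pairs, against -0.393 to -0.00284 for other numbers), which is the source of the pairing. Since the deviations of 3 libraries in a group sum to 0, positive values for same numbers push those for other numbers below 0. The latter are therefore no independent baseline. Same-numbered libraries of different genotypes did not correlate positively (-0.103 to -0.0423 on 1 side, -0.121 to -0.0416 across sides). No 2 replicates agreed within counting error (chi-square divided by its degrees of freedom was 4.58 to 13.6). Alternatives used DESeq2 1.42.0 and limma 3.58.1, other scaling and filters, blocks and left-out libraries. Self-tests ran on simulated data. Named genes are all 10 contractile genes, Intu, Gli1 and Hhip, up to 4 called genes of each list with the smallest p (some are given by count), and the 2 genes nearest in profile to each contractile gene; some genes under this rule are not reported here. The genes and lists were chosen with earlier results of these data known.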

Additional observations from a re-analysis of the deposited data

How the results depend on the processing

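Over 1020 values of the 10 genes under alternatives in 6 comparisons, 978 kept their side of the threshold, with a change of sign in uncalled values only where the shift was under 1 SE; 20 lost the call, 17 gained it, 5 uncalled values turned sign with a shift of 1 SE or more and no called value turned. Of 490 genotype values, 489 were negative; the exception was Nexn on the right. Actg2, Synpo2 and Myl9 were called in every alternative run of the 3 genotype comparisons.

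On the left, 112 genes were called, against 193 by DESeq2, 510 with no filter, 49 with only the 2 groups in the fit and 24 with a replicate block by number across genotypes, and 45 to 137 without single libraries (45 without wild type left number 1). The contractile genes called lower on the left numbered 3 under that block, which lost Lmod1 (adjusted p = 0.0861) and Actc1 (0.085), and 5 to 6 without single libraries. On the right, 144 genes were called, against 221 by DESeq2, 595 with no filter and 65 with the replicate block, and 68 to 175 without single libraries (68 without knockout right number 3 or wild type right number 2). The summed counts gave 141, against 308 by DESeq2, 344 by limma-voom with the pair as random effect, 543 with 12 libraries taken as independent and 48 with the replicate block by number, and 29 to 167 without single pairs (29 without knockout number 3 or wild type number 2, 65 without wild type number 1). The contractile genes called lower there were 4 to 8 without single pairs, and 5 with the block. Across genotypes the samples share a number alone.

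Left against right, knockout lungs gave 0 called genes, against 4 by DESeq2, 31 with no filter, 42 with the replicate block and 0 to 1 without single libraries. Wild type lungs gave 1, against 11 by DESeq2, 46 with no filter, 8 with only the 2 groups, 64 with the replicate block and 1 to 3 without single libraries. The interaction gave 0, against 6 with no filter and 2 with the replicate block. The cause of these differences was not tested. Without knockout left number 2 the knockout left-right value was -0.29 for Actc1, -0.04 for Des, -0.03 for Csrp1 and 0.01 for Cald1. Lmod1 had the fewest counts of the 10 genes, 69 to 168 in a library.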
